A study of Danio rerio with 4 samples.

Results

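H3K4me3 peaks that were present in both DN and Ctrl ventricles but were at least doubled in width in DN are described here. H3K4me3, a histone mark with 3 methyl groups on lysine 4 of H3, is laid down by SET1/MLL methyltransferases, removed by lysine demethylases, and is known for marking the nucleosomes around the start sites of active genes, often on both flanks of a nucleosome-depleted start site. Wider H3K4me3 domains are known from genes with high or cell-type-defining expression. Brg1 is the ATPase of the SWI/SNF complex, which slides and evicts nucleosomes at promoters and enhancers.

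The members are 3450 pairs of peaks of 9118 eligible pairs. They were chosen by peak width, a measured value. A pair is a DN peak and a Ctrl peak on chromosomes 1 to 25 that overlapped by at least 1 bp, neither of which overlapped another peak of the other list. In a doubled pair the DN peak was at least 2 times as wide as the Ctrl peak. Both peaks were under 3000 bp, and chromosome 4 from position 27000000 on was left out. Since widths chose the pairs, the widths and their ratio are given as a description with no test. The Ctrl peak of a pair is called the Ctrl core below.

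DN hearts carried the transgene ubi:loxp-DsRed-STOP-loxp-DN-xBrg1 together with kdrl:CreER. After 4-hydroxytamoxifen (4-HT), CreER under the endothelial kdrl promoter removes the DsRed-STOP cassette, so that a dominant-negative *Xenopus* Brg1 is made in endothelial cells, including the endocardium. Ctrl hearts carried the switchable transgene without kdrl:CreER. Both groups were adult fish, received 4-HT for 3 days before ventricular amputation and were sampled at 7 days post-amputation (dpa). The chromatin came from whole ventricles, about 25 hearts pooled per ChIP, and endothelial cells were only some of the cells in it. A broad mark in a few cells and a weak one in many cells cannot be told apart in such material. Of the 4 libraries, the H3K4me3 library of each group has a peak list, and the input libraries were not analysed here. With 1 library per group there is no replicate check, and no test between the groups was made. The intervals of shares are exact 95% binomial intervals that cover counting error only. Those of medians, used only for the dependence on processing, are order statistics over pairs. Neither covers differences between libraries. The lists hold no read counts, no gene annotation of their build (GRCz11) was used here, and neither genes nor heart cell markers were placed on the peaks.

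The DN list held 34889 peaks and the Ctrl list 17234, and 10030 of the 11709 overlaps between them were between peaks with a single partner. Leaving out the long part of chromosome 4 left 9740 such pairs, of which 9118 had both peaks under 3000 bp. In the doubled pairs the DN peaks covered 5.08 Mb and the Ctrl cores 1.54 Mb. The doubled pairs were 37.8% of the eligible pairs, which is what the width rule selects. The opposite case, a Ctrl peak at least 2 times as wide as its DN partner, was found in 349 pairs, or 3.83%. The remaining 5319 pairs lay between. Widening in DN was common among eligible pairs as a whole. The wider peak was in DN in 7442 of the 9118 (81.6%), and the median ratio of DN to Ctrl width was 1.62. By the estimate given below, the weakest peaks had 7 fragments in DN and 8 in Ctrl before scaling. The widths were thus called at unlike levels. Peak edges depend on this level, and its part in the widths was not tested.

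The doubled pairs were mostly short Ctrl peaks that lay within a much wider DN peak. Their median width was 1380.5 bp in DN (quartiles 953 and 1922 bp) and 373 bp in Ctrl (quartiles 252 and 573 bp). The narrowest peaks were 400 bp in DN and 200 bp in Ctrl, and the widest were 2996 bp in DN and 1426 bp in Ctrl. The median ratio was 3.10. It was at least 3 in 1833 pairs (53.1%) and at least 5 in 630 pairs (18.3%), and the highest was 14.5. A Ctrl core of exactly 200 bp, the smallest width in either list, was found in 318 doubled pairs (9.22%). In the pairs that lay between, it was found in 102 (1.92%). A narrow Ctrl core meets the rule more easily, so the rule itself favours this difference.

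**Figure D1:**
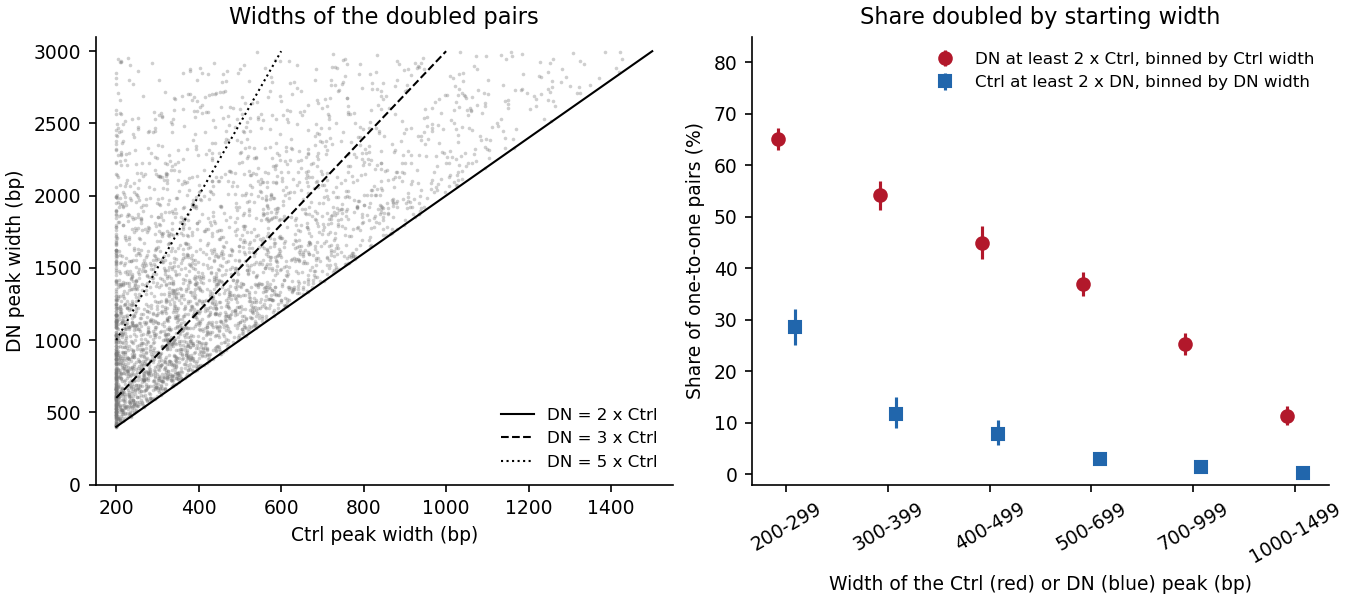
Left, DN peak width against Ctrl peak width in bp for the 3450 doubled pairs (1 point per pair), with lines at ratios of 2, 3 and 5. Right, share of one-to-one pairs at least doubled in DN by Ctrl width (red) and at least doubled in Ctrl by DN width (blue), with exact 95% intervals. The red share is 65.2% for the narrowest Ctrl peaks and 11.4% for the widest class shown, and it lies above the blue share in every class shown. Peaks of 1500 bp and over are in no class, since the limit of 3000 bp leaves them no room to double.

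The share of pairs that doubled varied with the width of the Ctrl core. It was 65.2% (95% interval 63.0 to 67.3) for Ctrl peaks from 200 to under 300 bp, 54.2% from 300 to under 400 bp and 45.0% from 400 to under 500 bp. It was 36.9% from 500 to under 700 bp, 25.3% from 700 to under 1000 bp and 11.4% (95% interval 9.65 to 13.3) from 1000 to under 1500 bp. The upper limit of 3000 bp leaves wide Ctrl cores less room to double, and a narrow peak can more easily have a partner of double its width. The opposite case was therefore taken in the same classes, by the width of the DN peak. There the Ctrl peak was at least doubled in 28.6% (95% interval 25.2 to 32.2) of pairs from 200 to under 300 bp and in 0.24% (95% interval 0.078 to 0.56) from 1000 to under 1500 bp. Both shares fell with width, and the share doubled in DN was the higher in all 6 classes. Among the doubled pairs, the median DN width was 938 bp over the narrowest Ctrl cores and 2637 bp over the widest.

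Most of the added length lay on 1 side of the Ctrl core in the typical pair, and whether most pairs counted as 2-sided depended on the reach required. With a side counted as extended where the DN peak reached at least 100 bp beyond the Ctrl core, 2021 doubled pairs were extended on both sides, which is 58.6% (95% interval 56.9 to 60.2). The share was 73.7% with a reach of 50 bp and 32.0% with a reach of 200 bp. At 100 bp, a further 727 (21.1%) were extended towards lower coordinates only and 702 (20.3%) towards higher coordinates only. In these 1-sided pairs, 41.4% (95% interval 39.8 to 43.1) of all, the Ctrl core came within 100 bp of 1 end of the DN peak or reached past it. The longer side held a median of 96.9% of the added length in the lower-only and 96.8% in the higher-only pairs, but as little as 55.1% in the lower-only class, so that some narrow DN peaks counted as 1-sided over a nearly central core. Neither direction along the chromosome prevailed, since 50.9% of 1-sided pairs (95% interval 48.2 to 53.5) were extended towards lower coordinates. The strand of genes at these positions was not analysed here. The total length added was 1.80 Mb on the lower and 1.79 Mb on the higher side.

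The longer side had a median of 766 bp (quartiles 507 and 1117 bp) and the shorter side 129 bp (quartiles 44.0 and 257 bp). The longer side held a median of 84.7% of the added length, where 50% would be symmetric and 100% 1-sided. Even placement of a core inside the DN peak would give a median of 75%, and the 2989 pairs with the core wholly inside had 81.3%. The longer side was at least 3 times as long as the shorter side in 2305 pairs, or 66.8% (95% interval 65.2 to 68.4). Even placement of a core inside the DN peak would give 50% here. The 461 pairs whose core reached out of the DN peak were counted among the 2305 by definition. In pairs extended on both sides, the medians were 765 bp for the longer and 219 bp for the shorter side. The longer side held a median of 72.9% of the added length there. The 75% is no baseline for this class, since at least 100 bp on each side limits the share of the longer side. Counted singly, 968 sides were from 0 to under 100 bp and 992 from 100 to under 200 bp, whereas 542 were from 200 to under 300 bp and 505 from 300 to under 400 bp. The number of sides thus dropped at about 200 bp and then declined slowly, to 199 from 1000 to under 1100 bp.

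**Figure D2:**
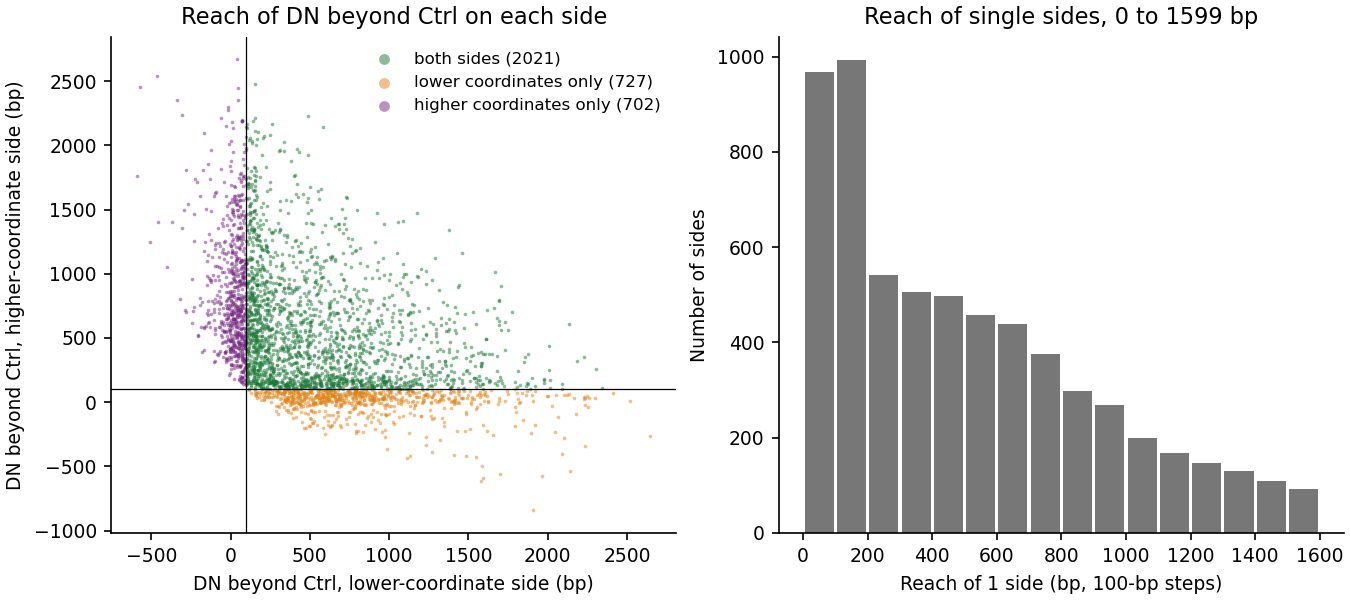
Left, reach of the DN peak beyond the Ctrl core in bp on the lower-coordinate (x axis) and higher-coordinate (y axis) side for each doubled pair, coloured by class, with lines at the 100 bp used to count a side as extended. Right, number of single sides by reach in steps of 100 bp. The points crowd along both axes, and the 968 and 992 sides in the first 2 steps stand above the 542 in the next.

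Extension on both sides was more frequent in wider DN peaks. The share was 38.1% (95% interval 34.0 to 42.3) for DN peaks from 400 to under 800 bp, 51.0% from 800 to under 1200 bp and 59.6% from 1200 to under 1600 bp. It was 67.3% from 1600 to under 2000 bp and 74.0% (95% interval 70.7 to 77.1) from 2000 to under 3000 bp. A fixed reach of 100 bp is more easily met by wider peaks. With a reach of 20% of the added length instead, 40.8% of doubled pairs were extended on both sides and 59.2% counted as 1-sided.

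The Ctrl core lay wholly inside the DN peak in 2989 pairs, which is 86.6% (95% interval 85.5 to 87.8), and the median share of the core inside was 100%. In the other 461 pairs it reached out of the DN peak, in 223 at the lower and in 238 at the higher end, and in 0 at both. These overhangs amounted to 47.4 kb in all. The share wholly inside was 51.3% (95% interval 49.9 to 52.6) in the pairs that lay between, where the widths are more alike. In the opposite case, 50.4% (95% interval 45.1 to 55.8) of the DN peaks lay wholly inside their wider Ctrl partner. The doubled pairs were mostly extensions of a Ctrl core rather than shifted peaks, a form that the width rule favours. A DN peak at least 2 times as wide leaves more room for the core inside it. In the opposite pairs, taken by the same ratio, about as many reached out as did not. The difference was not tested.

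Within the DN peak, the Ctrl core tended to lie off the centre. The centre of the core was a median of 287 bp from the centre of the DN peak (quartiles 152 and 476 bp), and in 1225 pairs, or 35.5% (95% interval 33.9 to 37.1), the core covered that centre. For the 2989 pairs with the core wholly inside, the share of the added length that lay at lower coordinates was divided into 5 equal classes, so that even placement would put 20% in each. The 2 outer classes, with the core near an end of the free space, held 26.1% (95% interval 24.6 to 27.7) and 26.8% (95% interval 25.2 to 28.5). The middle class held 14.2% (95% interval 12.9 to 15.5), the lowest share of the 5. The 2 ends of the DN peak were thus used about equally and the centre less often.

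This placement was seen in DN peaks of 800 bp and over. The 2 outer classes together held 51.9% of cores in DN peaks from 800 to under 1200 bp, 58.3% from 1200 to under 1600 bp, 57.8% from 1600 to under 2000 bp and 55.6% from 2000 to under 3000 bp. In DN peaks from 400 to under 800 bp they held 35.7% (95% interval 31.1 to 40.5), and 5 equal classes would give 40% there. The outer classes held 55.3% where the Ctrl core was at least 300 bp, so the pattern did not rest on the narrowest cores. In the pairs that lay between, they held 41.2% (95% interval 39.4 to 43.1). In the opposite case, the DN peak lay in the outer classes of the wider Ctrl peak in 51.7% (95% interval 44.1 to 59.3) of 176 pairs. Off-centre placement was thus found among doubled pairs of both directions.

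**Figure D3:**
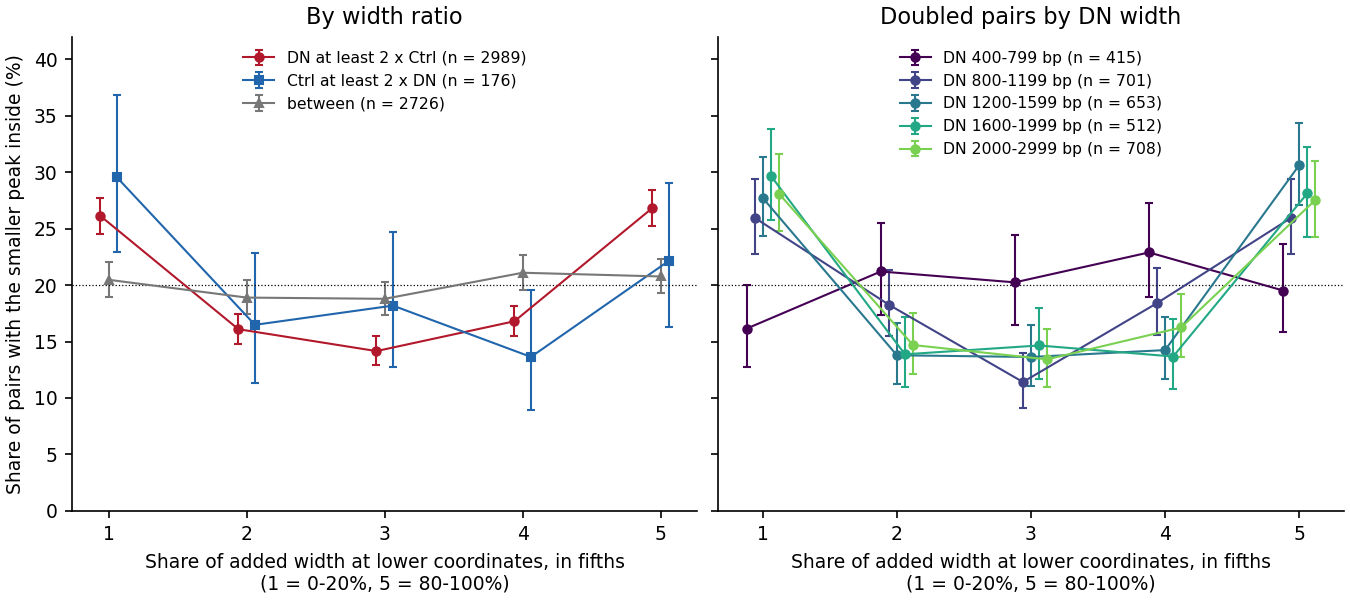
Share of pairs (%) by the share of the added length that lay at lower coordinates, in 5 equal classes, for pairs whose smaller peak lay wholly inside the larger. Bars are exact 95% intervals and the dotted line is 20%. Left, pairs doubled in DN (red), pairs doubled in Ctrl (blue) and pairs between (grey). Right, doubled pairs by DN width, where the shares are high at both ends for DN peaks of 800 bp and over and 16.1% and 19.5% at the ends for narrower ones.

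Fold and −log10 q are values of the authors' peak caller, each relative to its own list. The doubled pairs had a median fold of 4.29 in DN and 3.74 in Ctrl, and a median −log10 q of 4.19 in DN and 2.20 in Ctrl. By −log10 q, their median rank was the 81.1 percentile among DN peaks and the 57.2 percentile among Ctrl peaks, where 100% is the strongest peak. The percentile was higher in DN in 2733 pairs (79.2%). The pairs that lay between ranked at 82.5 in DN and 63.3 in Ctrl, and the percentile was higher in DN in 75.4% of them. Ranks in the list of 34889 peaks and in that of 17234 peaks are not measured alike, since the longer list holds more weak peaks below.

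To set the heights on 1 scale, the mean depth of each peak in fragments was estimated from its fold and p-value, under a formula of the peak caller that is assumed here. Whether the input entered each call is not given in the sources used here. Under this formula, the weakest DN peaks had 7 fragments and the weakest Ctrl peaks 8, and the caller scaled the Ctrl fragments by 0.914, so that the Ctrl minimum was 7.31 on the scaled scale. Depths are given in fragments before this scaling. The mean depth of the doubled pairs was a median of 11.0 fragments in DN (quartiles 9.17 and 13.0) and 9.72 in Ctrl (quartiles 8.84 and 11.1), although the DN mean was taken over a median of 3.10 times the width. It was higher in DN in 2285 pairs, or 66.2% (95% interval 64.6 to 67.8), against 61.0% in the pairs that lay between and 28.9% in the opposite case. On the scaled scale the median was 8.88 in Ctrl. There DN was higher in 79.8% of the doubled pairs, 73.7% of the pairs that lay between and 47.6% of the opposite pairs. This scale lowers the Ctrl depths only and, with them, the Ctrl background, to 1.64 against 1.79 in DN. It therefore raises the DN shares by construction. The order of the 3 classes was the same on both scales, but the second scale is no independent check. The classes were cut by the ratio of called widths. Width and mean depth come from the same signal, so the rule bears on this order too. The product of mean depth and width was a median of 3.52 times as large in DN as in Ctrl. This product contains the width by which the pairs were chosen, so the rule itself raises it. Its median ratio was 1.40 in the pairs that lay between and 0.331 in the opposite case. A mean depth under 8 fragments was found in 367 of the DN peaks (10.6%), and under 7.31 in 92 (2.67%). Without the 367, 3083 doubled pairs remained, which were 39.4% of the eligible pairs so filtered. What width each DN peak would have had at 8 fragments cannot be read from the lists.

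**Figure D4:**
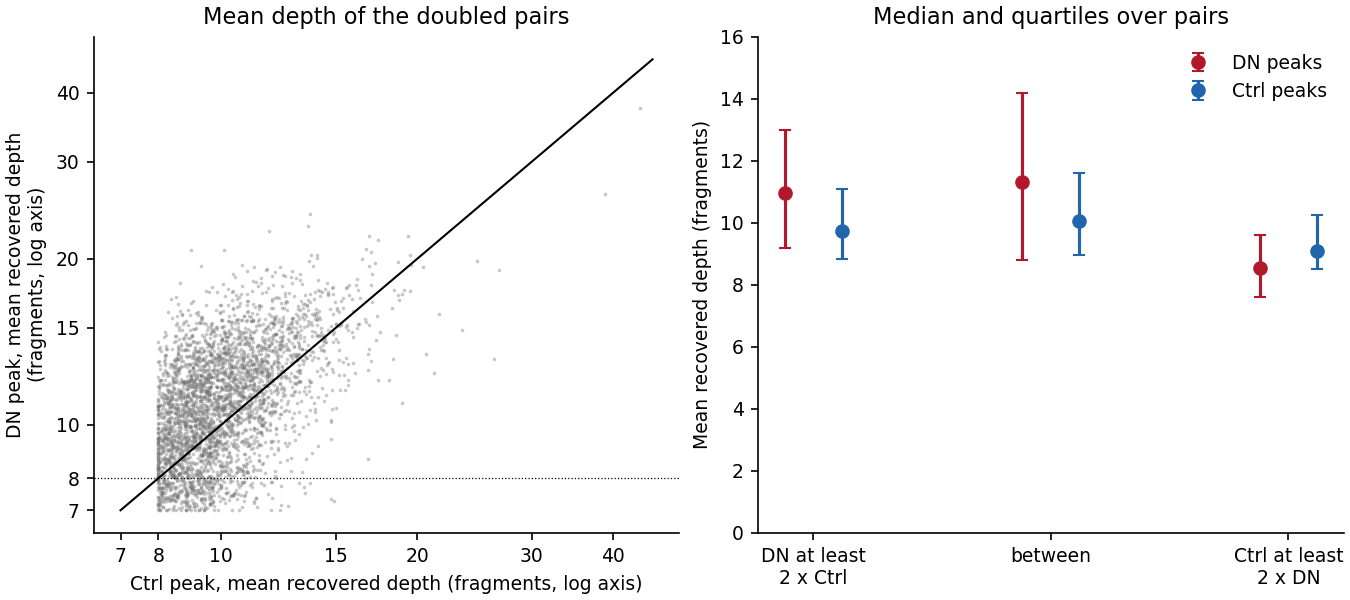
Left, mean recovered depth in fragments of the DN peak against that of the Ctrl peak for the doubled pairs (both axes logarithmic), with the line of equal depth and a dotted line at 8 fragments. Right, median (point) and quartiles (bars) of the mean depth of DN (red) and Ctrl (blue) peaks. In the doubled pairs the medians are 11.0 in DN and 9.72 in Ctrl, and in the opposite pairs 8.53 in DN and 9.08 in Ctrl.

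Doubling was found in every class of Ctrl depth used here, with a lower share in the deepest class. It was not found at the very deepest Ctrl peaks. The highest Ctrl mean depth was 43.9 fragments in the doubled pairs, 160 in the pairs that lay between and 64.4 in the opposite case. The share of eligible pairs that doubled was 40.1% for Ctrl peaks with a mean depth from 8 to under 9 fragments, 40.4% from 9 to under 10, 37.9% from 10 to under 12 and 30.8% (95% interval 28.6 to 33.1) at 12 and over. This share also varied with Ctrl width, and the depth classes were not compared at like Ctrl width. In these same classes, the mean depth was higher in DN in 73.1%, 66.5%, 65.2% and 54.0% of the doubled pairs. The classes were set by the same Ctrl depth that the DN depth was compared with, which by itself favours a falling share. The shares by class were not computed for the pairs that lay between. Pairs extended on both sides had a median DN depth of 11.3 fragments. The median was 10.5 in pairs extended towards lower and 10.4 in pairs extended towards higher coordinates. The Ctrl cores of these 3 classes had 9.71, 9.80 and 9.71 fragments in the same order, and thus differed less between the classes than the DN peaks did. The classes also differed in DN width, with medians of 1541, 1170 and 1175 bp in the same order. A reach of 100 bp is more easily met by wider peaks, so the DN depths of the classes were not compared at like width.

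Single pairs show these forms. Among pairs extended on both sides, the DN peak of the best −log10 q was found on chromosome 21 at 39461729 to 39463378, a width of 1650 bp with a fold of 8.59. Its Ctrl core, from 39462566 to 39463246, was 681 bp wide with a fold of 5.07, and the DN peak reached 837 bp beyond it at the lower and 132 bp at the higher end. The recovered mean depth was 23.0 fragments in DN and 13.6 in Ctrl, so that this peak was both wider and higher in DN. The next DN peak in this class lay on chromosome 11 from 5817257 to 5817810, 554 bp wide, over a Ctrl core of 247 bp from 5817414 to 5817660. It was nearly symmetric, with 157 and 150 bp added, and its mean depth was 22.0 fragments in DN and 16.9 in Ctrl. The third, on chromosome 15 from 25207696 to 25209080, was 1385 bp wide in DN and 665 bp in Ctrl, with 612 bp added at the lower and 108 bp at the higher end. In 2 of these 3 pairs the longer side thus carried most of the added length.

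Among pairs extended towards lower coordinates only, the strongest DN peak lay on chromosome 7 from 71530921 to 71531753, 833 bp wide with a fold of 9.01. Its Ctrl core of 346 bp, from 71531357 to 71531702, had a fold of 5.11. The DN peak added 436 bp at the lower and 51 bp at the higher end. The next lay on chromosome 17, at 31359730 to 31360899 (1170 bp in DN and 472 bp in Ctrl, 676 bp added at the lower end) and at 43837813 to 43838793 (981 bp in DN and 353 bp in Ctrl, 599 bp added). In all 3 pairs the mean depth was higher in DN, at 24.1, 22.0 and 22.5 fragments, against 13.7, 19.4 and 11.8 in Ctrl.

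Among pairs extended towards higher coordinates only, the strongest DN peak lay on chromosome 8 from 39415807 to 39416999. It was 1193 bp wide in DN with a fold of 13.8, over a Ctrl core of 581 bp from 39415821 to 39416401 with a fold of 15.6. Here 14 bp were added at the lower and 598 bp at the higher end, and the mean depth was 37.6 fragments in DN and 43.9 in Ctrl. The second lay on chromosome 2 from 22589241 to 22590901, 1661 bp wide in DN and 817 bp in Ctrl, with 26.2 fragments in DN and 38.8 in Ctrl. These were the 2 highest DN peaks of all doubled pairs by −log10 q, at 35.6 and 22.2, and in both the mean over the wider DN peak was lower than over the Ctrl core. The third lay on chromosome 14 from 52440135 to 52442191, 2057 bp wide in DN and 732 bp in Ctrl, with 36 bp added at the lower and 1289 bp at the higher end and 20.3 fragments in DN against 19.5 in Ctrl.

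The pairs with the largest ratios had Ctrl cores at or near the smallest width that was listed. On chromosome 17 from 10076045 to 10078992, a DN peak of 2948 bp lay over a Ctrl core of 203 bp, a ratio of 14.5, with 2135 bp added at the lower and 610 bp at the higher end. Its mean depth was 7.71 fragments in DN, which is under 8, and 10.6 in Ctrl. It also had the most added length of all doubled pairs. On chromosome 21 from 45657116 to 45659962 and on chromosome 23 from 31967462 to 31970278, DN peaks of 2847 and 2817 bp lay over Ctrl cores of 200 bp each. Their mean depths were 10.09 and 10.01 fragments in DN and 10.2 and 10.4 in Ctrl, so that the widths differed far more than the mean depths. The next most added length was found on chromosome 3 from 35505809 to 35508759 (2951 bp in DN and 229 bp in Ctrl) and on chromosome 5 from 57327335 to 57330268 (2934 bp in DN and 212 bp in Ctrl). In the second of these the core was nearly central, with 1378 and 1344 bp added.

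**Figure D5:**
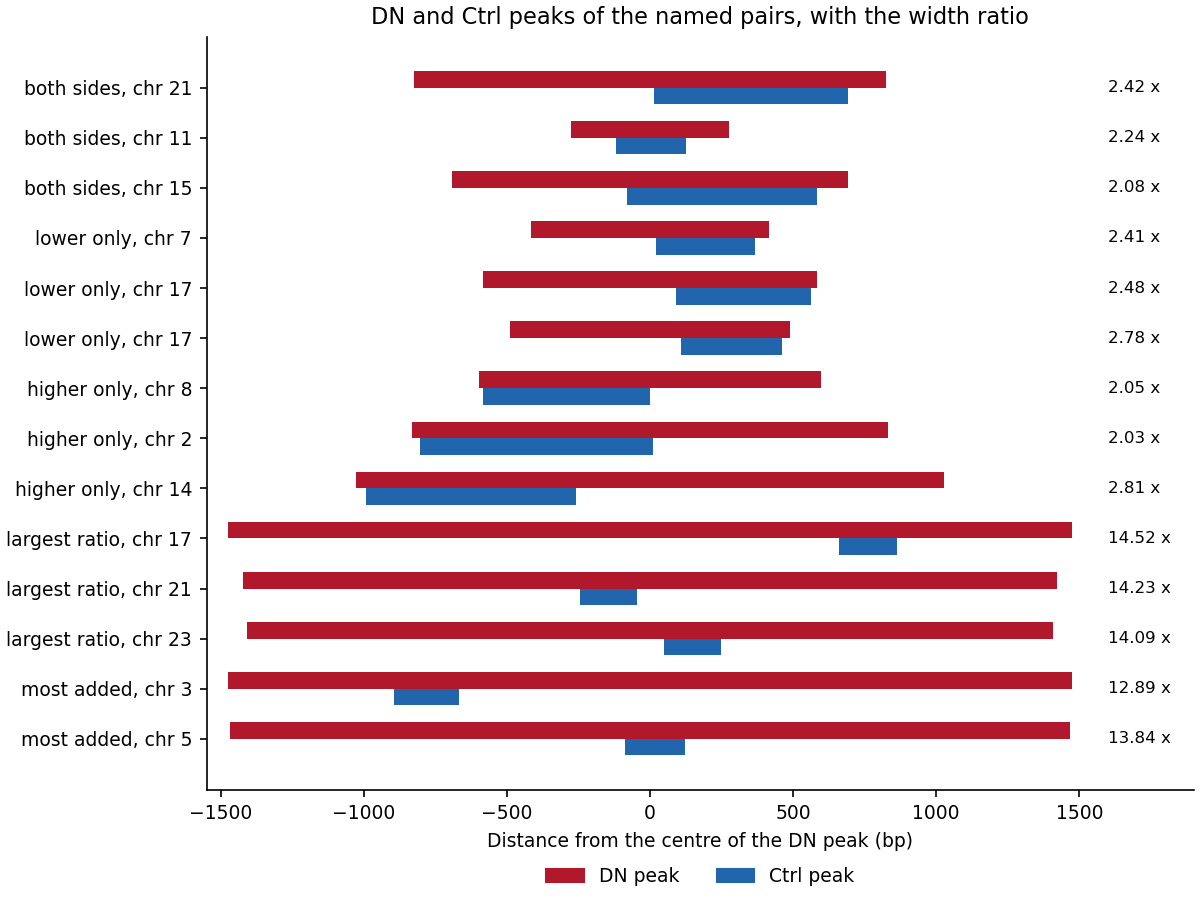
DN peak (red, upper bar) and Ctrl peak (blue, lower bar) of 14 named pairs, drawn to scale against the distance in bp from the centre of the DN peak, with the ratio of DN to Ctrl width at the right. Rows are named by class and chromosome, and the first row with the largest ratio also had the most added length. The Ctrl peak sits near 1 end in the 1-sided pairs and covers about 200 bp in the 5 lowest rows.

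At the limits of the rule, 6 pairs had a ratio of exactly 2. Examples lay on chromosome 1 from 40654728 to 40655579, with 852 bp in DN and 426 bp in Ctrl, and on chromosome 5 from 12030659 to 12031128, with 470 bp in DN and 235 bp in Ctrl. Just outside were a pair on chromosome 17 from 26718859 to 26720936 (2078 bp in DN and 1040 bp in Ctrl) and one on chromosome 16 from 28994851 to 28995751 (901 bp in DN and 451 bp in Ctrl). Just within the width limit were DN peaks of 2996 bp on chromosome 19 and 2995 bp on chromosome 5, over Ctrl cores of 1034 and 542 bp. Just beyond it were DN peaks of 3002 bp on chromosome 1 and 3009 bp on chromosome 5, over Ctrl cores of 1337 and 647 bp. Without the width limit, 3818 pairs met the ratio, against the 3450 described here. The rule therefore divides a continuous range of widths and ratios at both limits.

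Doubled pairs were found on all 25 chromosomes, with 79 to 231 per chromosome. They made up 32.6% (95% interval 27.7 to 37.7) of eligible pairs on chromosome 17, the lowest share, and 43.0% (95% interval 37.2 to 48.9) on chromosome 11, the highest, with a median of 37.5%. The intervals of these 2 extremes overlapped slightly. Each chromosome had more pairs doubled in DN than in Ctrl. The median ratio ranged from 2.77 to 3.56, and the share extended on both sides ranged from 47.5% on chromosome 25 to 70.5% on chromosome 7. Doubling was thus spread over the genome.

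The surroundings of the doubled pairs differed between the lists, which held 34889 peaks in DN and 17234 in Ctrl. The longer list brings neighbours closer in general, and the shares over all peaks of each list were not computed. Another DN peak lay within 1 kb of the DN peak in 831 pairs, which is 24.1% (95% interval 22.7 to 25.5), and another Ctrl peak lay within 1 kb of the Ctrl core in 109, which is 3.16% (95% interval 2.60 to 3.80). Within 5 kb the shares were 66.5% in DN and 31.4% in Ctrl. The nearest other peak was a median of 2.22 kb away in DN and 13.2 kb away in Ctrl. In the pairs that lay between, the shares within 1 kb were 21.3% in DN and 7.28% in Ctrl. Within 5 kb they were 62.5% in DN and 34.3% in Ctrl, close to those of the doubled pairs. In the opposite case, the shares differed less between the lists. They were 14.3% in DN and 15.2% in Ctrl within 1 kb, and 57.9% in DN and 49.9% in Ctrl within 5 kb. The reason for this was not tested. The rule itself bears on the shares within 1 kb and 5 kb and on the distances. A wide DN peak that met a second Ctrl peak would not have been counted as a pair. DN peaks reached up to 2670 bp beyond the Ctrl core. The same holds for a wide Ctrl peak that met a second DN peak.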

How the data were processed

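Per the labels, reads were trimmed with Trimmomatic 0.39, aligned to GRCz11 with STAR 2.7.8a and deduplicated with Picard 2.25.0. The authors kept unique alignments, drew equal numbers of read pairs from both conditions and called broad peaks per condition with MACS2 and no local background. The deposited score and −log10 p- and q-values, and the deposited fold (a ratio to the genome-wide background), are region averages within 1 list. The score was not used.

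Pairing followed the rule given in the report, with positions written 1-based. Depth was recovered from fold = (scaled depth + 1)/(background + 1) and the Poisson p-value at the lowest listed values, which gave 7 fragments at a background of 1.79 in DN, and 8 fragments scaled by 0.914 at a background of 1.64 in Ctrl. The formula is assumed, not stated by the authors. Pairing, sides and recovery were tested on simulated lists. The simulated depths were made with the same assumed formula, so this cannot show that the formula holds for the deposited peaks. Intervals are Clopper-Pearson, or order statistics for medians. Python 3.11.15, numpy 2.4.6, pandas 2.3.3 and scipy 1.17.1 were used.

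Named pairs are the 3 with the highest DN −log10 q of each side class, the 3 with the largest ratio, the 3 with the most added length and 2 at each limit. The rule, the members and the gene lists were chosen with earlier results of these data known. The comparisons with genes and sequence were not made, since no annotation or genome of GRCz11 was used here.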

Additional observations from a re-analysis of the deposited data

How the results depend on the processing

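Changes given here are those that took a share or median out of its 95% interval, or a number of pairs more than 1.5 times up or down. With a −log10 q of at least 4 in DN, 1839 doubled pairs were left, 64.2% of them extended on both sides, 35.8% with the core at 1 end and a median of 83.1% of the added length on the longer side. With that level in both lists, 324 were left, 28.7% of eligible pairs, with 89.3% on the longer side. With at least 50% of the core inside, the share doubled was 40.5%, both sides 60.5% and 1 end 39.5%. At a ratio of at least 3, the values were 1833 pairs, 20.1%, 62.8% both sides, 37.2% at 1 end and 85.8% on the longer side. Without the width limit, the share doubled was 39.2%, both sides 60.6% and 1 end 39.4%. With peaks under 1 kb apart merged, it was 40.4%, with 86.8% on the longer side. A reach of 50 bp gave 73.7% on both sides and 26.3% at 1 end, a reach of 200 bp gave 32.0% and 65.8%, and a reach of 20% of the added length gave 40.8% and 59.2%. The reach thus decides whether most pairs count as 2-sided.

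Chosen after seeing the data, the scaled scale, which lowers Ctrl depths only, put DN higher in 79.8% of doubled pairs instead of 66.2%. Also so chosen, a DN mean depth of at least 8 fragments gave 39.4% doubled, 61.0% on both sides and 39.0% at 1 end, and Ctrl cores of at least 300 bp gave 2241 pairs, 30.9%, 61.9% and 38.1%. The shares for both sides and 1 end are complements except at 200 bp. Filters lower the number of pairs by construction. For the remaining changes the cause was not tested. With chromosome 4 kept whole, 3512 pairs were doubled. The median share of the core inside the DN peak was at its limit of 100% throughout, and fold ranks much as −log10 q does within a list, so neither tells of stability. No paired analysis was possible because DN and Ctrl have a single H3K4me3 library each, which also leaves no replicate to drop. The alternative that placed peaks against gene starts was not run. Without read counts, the depth outside the Ctrl core in Ctrl is unknown, so a DN extension cannot be set beside the Ctrl signal just under its threshold.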

Other observations

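These values were looked at after the main results were seen. The side of the extension was set beside the position of neighbouring peaks. Among the 1-sided doubled pairs with another DN peak within 5 kb, that nearest peak lay on the extended side in 459 of 936, which is 49.0% (95% interval 45.8 to 52.3). For the nearest other Ctrl peak within 5 kb, it was 239 of 499, or 47.9% (95% interval 43.4 to 52.4). The extension thus pointed towards and away from a neighbour about equally often, with distances taken from the edges of the DN peak in both cases. Pairs whose DN peak met a second Ctrl peak were left out by the rule, and DN peaks that meet are listed as 1 peak. Extensions that reached a neighbour are therefore not counted as such. These shares cannot show whether extension depends on neighbours.

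Doubled pairs lay near chromosome ends about as often as the pairs between. Of the 3450, 421 lay within 2 Mb of an end, with the far end taken as the last listed peak, which is 12.2% (95% interval 11.1 to 13.3) against 12.3% (95% interval 11.4 to 13.2) of the pairs that lay between. Another doubled pair lay within 10 kb in 566 cases, or 16.4% (95% interval 15.2 to 17.7). No such share was computed for the pairs that lay between or for all eligible pairs. The value therefore does not tell whether doubled pairs cluster.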
